A study of Mus musculus with 4 samples.

Results

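The cells described here are Cst7 Spp1 phagocytes, 165 of the 10841 cells kept from leukocytes of the ischemic mouse brain. The stroke model was tMCAO (transient occlusion of the middle cerebral artery) in C57/BL6 mice, where the vessel is blocked for a time and then reopened. Ischemic hemispheres were taken 5 or 14 days later from saline-perfused mice, and CD45high cells, the fraction with most of the leukocyte surface protein CD45, were sorted for 10x Genomics droplet sequencing of RNA 3' ends (v2 chemistry), with 2 libraries a day. All mice had tMCAO, libraries from mice without it were not analysed here, and the labels give neither age nor the number of animals in a library, so p-values measure the spread between libraries. Resident microglia usually carry less CD45 than blood leukocytes, so the sort sets which of them could be sampled.

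Phagocytes of injured or degenerating brain take up dead cells and myelin debris, digest them in lysosomes and export the lipid with apolipoproteins. Microglia in this state, often called disease-associated, are known for lower levels of resting genes such as P2ry12 and Tmem119 and higher levels of Cst7, Spp1, Apoe, Lpl and Trem2. Cst7 encodes cystatin F, an inhibitor of lysosomal cysteine proteases, and Spp1 encodes osteopontin, a secreted protein that binds integrins and CD44. In GRCm38 (GENCODE vM21) Cst7 lies on chromosome 2 at 150570415 to 150578944 and Spp1 on chromosome 5 at 104435118 to 104441050, both on the plus strand. The study's title concerns osteopontin and microglia in repair after stroke.

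A cell was included with 2 or more UMIs (unique molecular identifiers, each marking 1 captured RNA molecule) of Cst7, 10 or more of Spp1 and 10 or more of C1qa, C1qb and C1qc together, the subunits of complement C1q. It also had fewer than 4 UMIs of P2ry12, Tmem119 and Gpr34 together (resting microglia), fewer than 2 of Ms4a7 (recruited macrophages), 0 of Cd5l, and fewer than 3 each of 5 cell cycle, 4 T cell and 3 B cell genes. The files hold 10925 barcodes, from which 3 with fewer than 200 genes and 81 above 10% mitochondrial UMIs were removed. The libraries gave 19 and 20 phagocytes on day 5 and then 63 and 63 on day 14. The genes of the rule chose the cells, so their values describe them and were not tested. In the 165 cells Cst7 ranged from 2 to 46 UMIs (median 4), Spp1 from 10 to 1044 (median 29) and C1q from 11 to 332 (median 65). The lowest allowed count of 2 Cst7 UMIs was held by 40 of them, while 79 cells that met every other condition held 1, of which 26 and 34 came from day 5 and 11 and 8 from day 14. For Spp1, 11 phagocytes held 10 UMIs and 8 cells just outside held 9. For the resting microglia genes, 37 phagocytes held 3 UMIs and 26 cells just outside held 4.

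Phagocytes had a median of 2365 and 2596 UMIs on day 5 and then 2406 and 2765 on day 14, against medians of 3564 and 3059 on day 5 and then 2884 and 4236.5 on day 14 over all cells kept. All cells kept held 9283102 to 13571529 UMIs per library. The UMIs of the phagocytes summed to 63753 and 68829 on day 5 and then 194145 and 259963 on day 14, so the day 5 sums are the thinner side of every comparison. The same barcode occurred in more than 1 library 62 times, and 2 phagocytes were among these, none sharing its barcode with another phagocyte. Between the libraries of 1 day the summed phagocyte counts differed by a chi-square per gene of 1.60 on day 5 and then 2.38 on day 14. The matrices of the 2 days have different header layouts, so any difference of upstream processing and the difference of days cannot be told apart.

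Phagocytes made up 0.758% and 0.580% of all cells kept on day 5 and then 2.44% and 2.73% on day 14. The exact binomial 95% intervals, which cover counting error only, were 0.457% to 1.18% and 0.355% to 0.895% on day 5 and then 1.88% to 3.11% and 2.10% to 3.48% on day 14. Both day 14 libraries lay above both day 5 libraries, with means of 0.669% ± 0.126 (SD, n = 2) and 2.59% ± 0.203 (SD, n = 2). The difference was 1.92 percentage points with a two-sided exact permutation p of 0.333, the smallest that 2 libraries against 2 can give.

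Among C1q-positive cells, those with 10 or more C1q UMIs within the same T and B cell limits, phagocytes were 1.30% and 0.917% on day 5 and then 15.1% and 14.7% on day 14. Here too the days did not overlap, and the difference was 13.8 percentage points (exact permutation p = 0.333, two-sided, again the smallest possible). The denominator moved as well: C1q-positive cells were 60.7% ± 3.68 (SD, n = 2) of all cells on day 5 and then 17.4% ± 1.71 (SD, n = 2) on day 14. Thinned to 1500 UMIs per cell, with shallower cells left out, the shares of all cells were 0.808% and 0.709% on day 5 and then 2.28% and 2.16% on day 14. Thinned to 3000 UMIs they were 0.625% and 0.685%, then 2.91% and 1.74%, and 14.5% and 8.83% of C1q-positive cells on day 14. With Cst7 and Spp1 lowered to 1 and 5 UMIs the shares of all cells were 2.55% and 2.38% on day 5 and then 3.798% and 3.55% on day 14, a difference of 1.21 points. With stricter limits of 3 and 20 UMIs they were 0.239% and 0.116% on day 5 and then 1.36% and 1.73% on day 14.

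**Figure D1:**
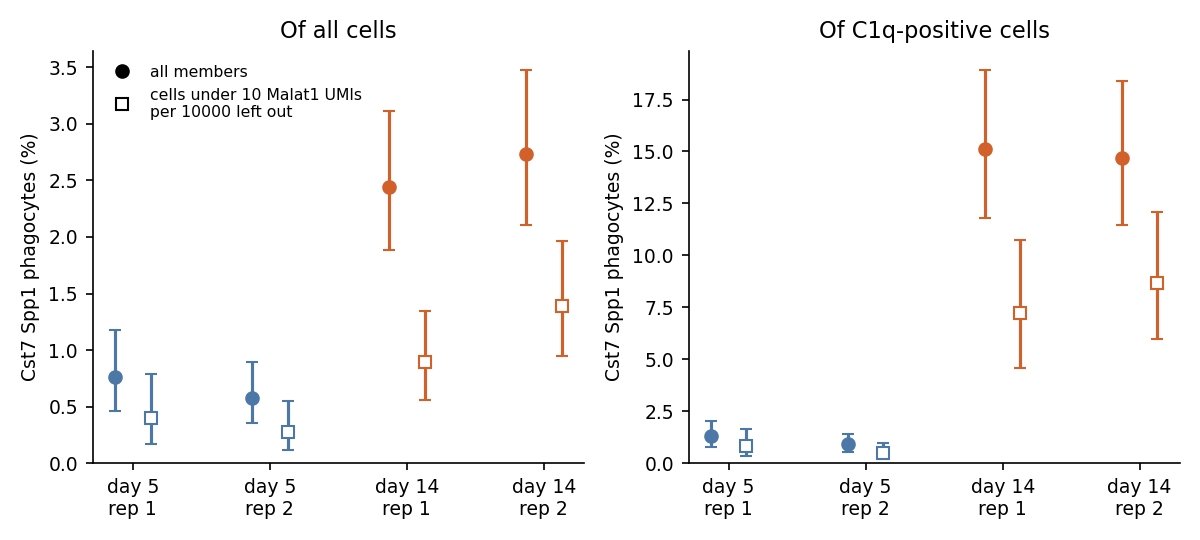
Share of Cst7 Spp1 phagocytes (%) in each library, of all cells (left) and of C1q-positive cells (right), with exact binomial 95% intervals as bars, blue for day 5 and orange for day 14. Filled circles are all phagocytes and open squares leave out cells of low Malat1, and both day 14 libraries are above both day 5 libraries in each panel.

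The name was checked on the 3 markers that the rule did not use, with levels given as CPM (the usual counts-per-million scale, a gene's UMIs relative to all UMIs of the summed cells). For comparison, 2 other groups were summed in the same way, with no limit on Cst7 or Spp1. They were P2ry12-positive microglia (1461 cells, 4 or more resting-gene UMIs) and Ms4a7-positive macrophages (501 cells, 2 or more Ms4a7 UMIs and few of the resting genes). Both kept the rule's limits on C1q, Cd5l, cell cycle, T cell and B cell genes, and microglia also that on Ms4a7. Macrophages further had fewer than 4 UMIs of the border macrophage genes Pf4, Cbr2, Lyve1 and Cd163 together, a limit not set for phagocytes. Phagocytes were chosen by their levels, so these contrasts are given as values with no test. Apoc1, an apolipoprotein of the Apoe gene cluster, was at 204 and 116 on day 5, then 1628 and 919 on day 14 in phagocytes. It was at 139 and 98.9 on day 5, then 733 and 843 on day 14 in microglia and at 369 and 300.0 on day 5, then 348 and 354 on day 14 in macrophages. Only the day 14 phagocytes and microglia stood above the macrophages in Apoc1.

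Fabp5, a cytosolic fatty acid carrier, was at 345 and 392 on day 5, then 582 and 923 on day 14 in phagocytes. That was above microglia (149 and 122 on day 5, then 325 and 377 on day 14) and below macrophages (736 and 600.0 on day 5, then 1293 and 2135 on day 14) in every library. Gpnmb, a lysosome-associated glycoprotein of lipid-laden phagocytes, was at 15.7 and 145 on day 5, then 201 and 269 on day 14 in phagocytes and at 1135 and 1018 on day 5, then 1783 and 1976 on day 14 in macrophages. The 15.7 CPM of Gpnmb is a single UMI. Gpnmb was lower in phagocytes than in macrophages in every library, and its median per phagocyte was 0. After thinning to 1500 UMIs, 148 phagocytes were left, of which 40.5% had an Apoc1 UMI, 56.8% a Fabp5 UMI and 25% a Gpnmb UMI (57.6%, 74.5% and 35.2% of all 165 unthinned). In 837 thinned natural killer (NK) cells, which should lack these genes, the shares were 2.63%, 3.23% and 1.67%. Apoc1 and Fabp5 were thus above microglia in both day 14 libraries. Against macrophages only Apoc1 was higher, and only on day 14. Fabp5 and Gpnmb were lower than in macrophages in every library, so neither was a marker that set these cells apart from macrophages.

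The genes of the rule had the following levels. Cst7 was at 1019.6 and 843 CPM on day 5, then 2004 and 1958 on day 14 in phagocytes, at 277 and 262 on day 5, then 1684 and 2039.7 on day 14 in microglia and at 40.8 and 38.8 on day 5, then 118 and 119 on day 14 in macrophages. Day 14 microglia thus reached the Cst7 level of the phagocytes. Spp1 was at 12360.2 and 8034 CPM on day 5, then 14376 and 23134 on day 14 in phagocytes and at 1813 and 1479 on day 5, then 5415 and 11211 on day 14 in microglia. In macrophages Spp1 was at 4653 and 4591 on day 5, then 16719.5 and 21624 on day 14, so on day 14 macrophages carried Spp1 at a level like that of phagocytes. The rule set a Cst7 minimum for phagocytes, while microglia and macrophages had none. The part of that minimum in the lower Cst7 of macrophages was not tested.

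Some lineage genes stood at other levels in phagocytes than in microglia or in macrophages. The 3 groups were cut on resting microglia genes and on Ms4a7, so these contrasts can restate that choice and were not tested. Sall1, a transcription factor of microglia, was at 15.7 and 14.5 CPM on day 5, then 30.9 and 15.4 on day 14 in phagocytes, at 71.4 and 80.9 on day 5, then 64.6 and 59.6 on day 14 in microglia and at 2.33 and 0 on day 5, then 3.38 and 2.25 on day 14 in macrophages. Sparc, a matricellular protein, was at 627 and 1075 on day 5, then 1040.5 and 839 on day 14 against 63.0 and 119 on day 5, then 47.3 and 49.4 on day 14 in macrophages. Cx3cr1, the fractalkine receptor, was at 329 and 479 on day 5, then 407 and 392 on day 14 against 1053 and 1207 on day 5, then 1028 and 1021 on day 14 in microglia. Lysozyme (Lyz2) was at 3263 and 3908 on day 5, then 4244 and 4974 on day 14 in phagocytes and at 22412 and 22484 on day 5, then 21619.5 and 19616 on day 14 in macrophages. Phagocytes had less Sall1 and Cx3cr1 than microglia in every library, with 1, 1, 6 and 4 Sall1 UMIs in all, and more Sparc and less Lyz2 than macrophages in every library.

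Over genes at 100 CPM or more, ranked by the mean log2 ratio with the same sign in all 4 libraries, phagocytes stood highest over microglia for Bhlhe40, Ifit1, Ccnd2, H2-DMb2, Dab2 and Igf1. Igf1, a growth factor, was at 345 and 262 CPM on day 5, then 345 and 439 on day 14 against 71.9 and 80.6 on day 5, then 199 and 269.5 on day 14 in microglia. The lowest against microglia were Adap2os, Sgk1, AC149090.1, Siglech, Arhgap5 and Rhob. Against macrophages the highest were Sparc, Serpine2, Cd81, Plxdc2, Xlr and Cd34, and the lowest Gpnmb, Pla2g7, Ly6c2, Cfb, Chil3 and Arg1, the last 2 known from monocyte-derived cells. Ribosomal protein and mitochondrial genes aside, the 15 most abundant genes of the phagocytes were Apoe, Tmsb4x, Spp1, Ctsd, Cst3, Ftl1, Cd74, Fth1, Malat1, Actb, B2m, C1qa, C1qb, Ctsb and C1qc. Cd74 is among these through the 19 class II cells described below, being at 642 to 1789.9 CPM in the other 146 phagocytes, and 97.4% of the day 5 UMIs of H2-DMb2 lay in those 19. Among the 15, Ctsd, the protease cathepsin D, stood at 15340.5 and 14732 CPM on day 5, then 14942 and 12198 on day 14. It was at 15199 and 14762 on day 5, then 18222 and 15078 on day 14 in microglia, and in macrophages, lower in every library, at 8447 and 8909.8 on day 5, then 6562 and 6905 on day 14.

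**Figure D2:**
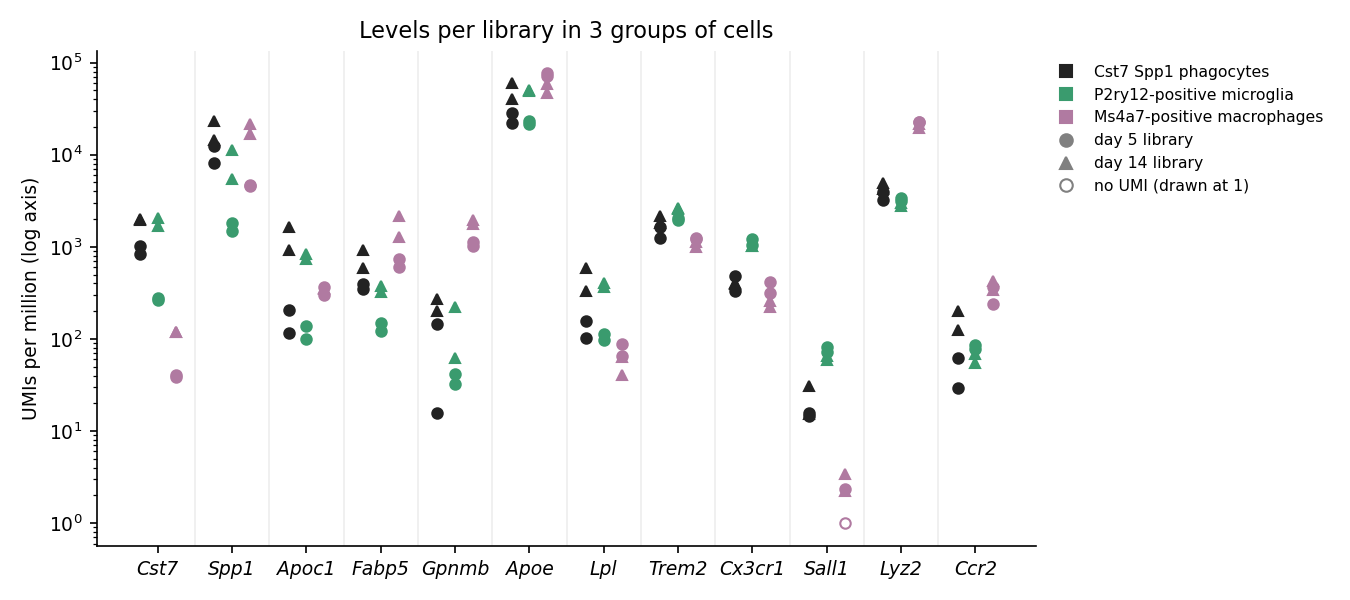
Levels in CPM (log axis) of 12 genes per library in Cst7 Spp1 phagocytes (black), P2ry12-positive microglia (green) and Ms4a7-positive macrophages (purple), circles for day 5 and triangles for day 14, an open circle for no UMI. Gpnmb and Lyz2 are highest in macrophages, and Sall1 and Cx3cr1 in microglia.

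The 165 cells were not uniform, and 2 kinds of cell within them bear on the day comparison. The first were 19 cells (3 and 5 on day 5, 4 and 7 on day 14) with over 3% of their UMIs from Cd74, H2-Aa, H2-Ab1 and H2-Eb1, genes of antigen presentation on MHC class II. They held 97.9% and 97.8% of these 4 genes' phagocyte UMIs on day 5 and then 71.5% and 87.7% on day 14. They were deep cells, with a median of 7528 UMIs against 2303 in the other 146, and gave 39.3% and 43.4% of all phagocyte UMIs on day 5 but 14.0% and 23.1% on day 14. Their median C1q share of UMIs was 0.557% against 2.97% in the others. Flt3, a receptor of dendritic cells, had a UMI in 10 of the 19 and in 1 of the 146, and Cd209a, another dendritic cell gene, in 8 and 5. These 19 cells met the rule's minimum counts but carried dendritic cell genes as well, and are kept here because the rule includes them.

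The second kind were cells of low Malat1, an abundant nuclear RNA. Whether barcodes low in it hold whole cells was not tested. In 96 of the 165 phagocytes (58.2%) Malat1 was under 10 UMIs per 10000, and 65 had none. The share under 10 was 57.9% and 60% on day 5 and then 65.1% and 50.8% on day 14. It was 18.5% in microglia, 11.6% in macrophages, 27.2% in C1q-positive cells and 11.7% in all cells. Phagocytes with no Malat1 UMI were 52.6% and 55% on day 5 and then 41.3% and 28.6% on day 14. These 96 cells had a median of 2051 UMIs and 788.5 genes, against 4841 UMIs and 1750.0 genes in the other 69. As a description, median Apoe was 606 per 10000 UMIs against 226 and median Ctsd 175 against 85.5. Spp1 (132 against 64.2) and Cst7 (21.4 against 11.5) have fixed UMI minimums in the rule, which by themselves require higher shares in shallower cells. Only 2 cells were of both kinds, and 52 of neither. With cells of low Malat1 left out of both counts, phagocytes were 0.401% and 0.278% of all cells on day 5 and then 0.893% and 1.39% on day 14, and 0.832% and 0.488% against 7.24% and 8.68% of C1q-positive cells. The days still did not overlap, and the differences fell to 0.803 and 7.30 percentage points.

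**Figure D3:**
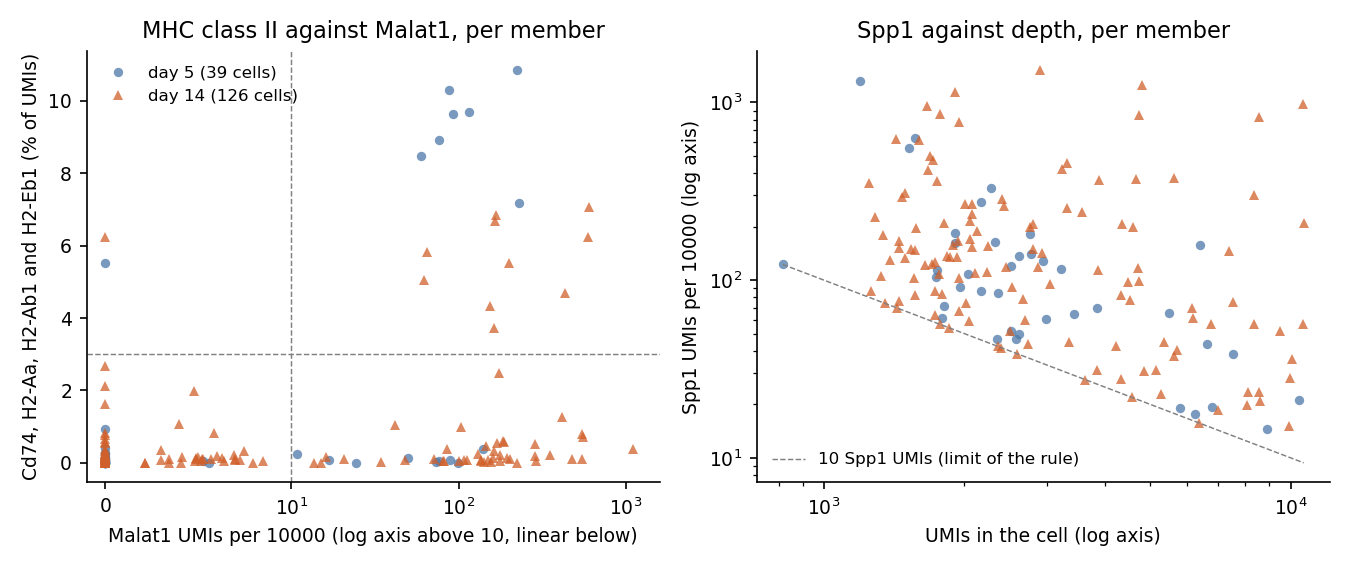
Each of the 165 phagocytes, day 5 as circles and day 14 as triangles, with on the left percent of UMIs from 4 MHC class II genes against Malat1 UMIs per 10000, with dashed limits at 3% and 10, and on the right Spp1 UMIs per 10000 against UMIs in the cell (log axes) with the 10-UMI limit of the rule. The 19 cells above 3% lie mostly to the right of the Malat1 limit, and on the right no phagocyte can lie under the 10-UMI line, which is higher for shallower cells.

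Signs of other cells were counted too. At least 3 UMIs of dendritic cell genes were found in 16 phagocytes. The same count was reached for blood monocyte genes in 29, for neutrophil genes in 10, for border macrophage genes in 11, for NK cell genes in 4 and for myelin genes in 0. At least 1 UMI of 11 T, B or NK cell genes was present in 33. Of 11 genes of neurons, astrocytes, oligodendrocytes and vessels 7 were at 0 in every library, among them Snap25, Gfap, Aqp4, Mog and Cldn5, as were the 3 erythroid genes. The other 4 were Mbp, a myelin gene found in every library (15.7 and 29.1 CPM on day 5, then 51.5 and 26.9 on day 14), and Mobp, Flt1 and Pecam1. Summed, the 11 were at 15.7 and 43.6 CPM on day 5, then 72.1 and 46.2 on day 14, against 14.2 to 33.9 in microglia and 23.6 to 44.0 in macrophages, and their part in the day differences was not tested. The rule's T cell limit alone kept out 28 further cells, 17 and 11 of them from day 14 and 0 from day 5, and without the T and B cell limits the day difference in the share of all cells was 2.62 points.

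Across single cells Spp1 ran from 14.6 to 1515 UMIs per 10000, with a 10th percentile of 29.2, a median of 114 and a 90th percentile of 444. Cst7 ran from 1.92 to 115 (median 16.3) and Apoe from 24.2 to 1980 (median 438). In the 148 cells thinned to 1500 UMIs, Spearman's rho was 0.68 between Ctsb and Ctsd, both lysosomal proteases. It was 0.49 between Spp1 and each of Cd9 and Cd63, tetraspanins of vesicles and lysosomes, and 0.48 between Cst7 and Apoe. Against Cd74 it was -0.45 for Ctsd and -0.37 for Spp1. These cells share libraries, and the 19 class II cells and the cells of low Malat1 are among them, so the values describe these cells only. The rule also chose the cells by fixed UMI minimums of Spp1 and Cst7 before thinning, which require higher shares in shallower cells. Its part in the correlations of Spp1 and Cst7 was not tested.

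For the day comparison, phagocyte UMIs were summed per library and tested with edgeR (quasi-likelihood F test, 2 libraries against 2). Each fold is given as log2 of day 14 relative to day 5 with ± its standard error (SE), and a gene passed at a Benjamini-Hochberg adjusted p under 0.05 over the 1701 genes with enough counts. In all 64 genes passed (3.76%), of which 47 were higher on day 14 (2.76%) and 17 lower (0.999%). At an unadjusted p under 0.05 there were 255 (15%). By the same test 4.45% of genes passed in microglia (3.09% higher, 1.35% lower), 5.2% in macrophages (4.1% higher, 1.1% lower) and 5.05% in NK cells (3.63% higher, 1.41% lower). The 47 include Cst7, a gene of the rule, which is a description only. Without day 5 replicate 2 the count was 100. In 836 genes (49.1%) the 2 days did not overlap. With the 19 class II cells left out 17 of 1382 genes passed, 15 higher and 2 lower, and 14 of them were among the 64. With the 96 cells of low Malat1 left out 40 of 1032 passed, all among the 64. Apart from genes that share their 3' end with another gene, Ccl5, Apoc1, Lgals3bp, H2-D1, B2m, AW112010 and Stmn1 passed in all 3 fits. Without the 33 phagocytes with a lymphocyte gene UMI 22 genes passed, with Ccl5, Lgals3bp, H2-D1, B2m and Stmn1 among them but not Apoc1 (log2 fold 2.96, edgeR adjusted p = 0.249) or AW112010. Of the 64 genes 13 share most of their 3' end with another gene (13 of 57 such genes tested were higher and 0 lower), mostly ribosomal protein copies and Ftl1-ps1. Such genes were also higher on day 14 in NK cells (43 of 121 higher, 0 lower). Psme2b, at 0 UMIs on day 5, and Ftl1-ps1 are among them.

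Several genes of lipid handling were higher on day 14 and 1 was lower. Of 10 tested, 4 were higher and 1 lower, with a median log2 fold of 1.12 against -0.02 over all genes tested. Apoe, the main lipid carrier of the brain, was at 22352 and 28491 CPM on day 5, then 60342 and 40579 on day 14. Both day 14 values lay above both day 5 values, and the log2 fold was 1.11 ± 0.24 (SE; edgeR adjusted p = 0.0279). Apoc1, its neighbour on chromosome 7 (GRCm38, GENCODE vM21 positions 19689481 to 19692660, with Apoe at 19696109 to 19699188), had 13 and 8 UMIs on day 5 and then 316 and 239 on day 14. These UMIs lay in 7 and 5 cells on day 5 and in 47 and 36 on day 14. The days of Apoc1 did not overlap and its log2 fold was 3.11 ± 0.39 (edgeR adjusted p = 0.00177). Lpl, lipoprotein lipase, was at 157 and 102 CPM on day 5, then 335 and 585 on day 14, a log2 fold of 1.96 ± 0.39 (edgeR adjusted p = 0.0177). Npc2, which moves cholesterol out of lysosomes, was at 1427 and 1395 CPM on day 5, then 2555 and 2543 on day 14, a log2 fold of 0.97 ± 0.16 (edgeR adjusted p = 0.00656). Fabp5 did not pass (1.14 ± 0.28, edgeR adjusted p = 0.0511).

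Plin2, which coats lipid droplets, went the other way. It was at 878 and 654 CPM on day 5, then 201 and 212 on day 14, with both day 5 libraries above both day 14 libraries and a log2 fold of -1.77 ± 0.24 (edgeR adjusted p = 0.00282). Plin2 had a UMI in 18 of 19 and 13 of 20 phagocytes on day 5 and in 22 and 31 of 63 on day 14. Without the 19 class II cells the log2 fold was -1.99 for Plin2, 0.86 for Apoe, 1.47 for Lpl and 0.72 for Npc2, none past the threshold (edgeR adjusted p 0.0783, 0.178, 0.18 and 0.0748). Without the cells of low Malat1 Apoe (edgeR adjusted p = 0.263) and Lpl (0.0552) did not pass. With edgeR Apoc1 passed without either kind of cell, and without the class II cells was at 2.73 (adjusted p = 0.0438).

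Of 23 disease-associated microglia genes tested, 6 were higher on day 14 (Apoe, Apoc1, Lpl, B2m, Ccl6 and Timp2) and 0 lower, with a median log2 fold of 0.49. At an unadjusted edgeR p under 0.05 there were 12 of the 23. Without the class II cells 2 of 22 were higher past the adjusted threshold. Timp2, an inhibitor of matrix metalloproteases, was at 909.8 and 712 CPM on day 5, then 1834 and 1369 on day 14, a log2 fold of 1.10 ± 0.22 (edgeR adjusted p = 0.0196). Timp2 did not pass without the class II cells (0.75, edgeR adjusted p = 0.157), the cells of low Malat1 (0.96, edgeR adjusted p = 0.0998) or the cells with a lymphocyte gene UMI (1.12, edgeR adjusted p = 0.262). Other genes of the programme had values on both days that did not separate past the test. Trem2, the lipid-sensing receptor, was at 1255 and 1627 CPM on day 5, then 2184 and 1827 on day 14 (log2 fold 0.59 ± 0.19, edgeR adjusted p = 0.175), and Gpnmb had a log2 fold of 1.62 ± 0.56 (edgeR adjusted p = 0.195). Of 13 phagocytic and lipid-sensing receptors 0 passed with edgeR (median 0.22; 5 at an unadjusted p under 0.05, 0 with DESeq2), among them Tyrobp, the signalling partner of Trem2, at 5913 and 4751 CPM on day 5, then 5733 and 5635 on day 14.

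A single lysosomal gene passed. Of 22 tested, 0 were higher and 1 lower, with a median of 0.02, and 5 had an unadjusted edgeR p under 0.05. Ctsd had a log2 fold of -0.03 ± 0.17 (edgeR adjusted p = 0.944) and Ctsb of -0.11 ± 0.16 (edgeR adjusted p = 0.801). Lgmn, the protease legumain, was lower at 2667 and 3153 CPM on day 5, then 1715 and 1593 on day 14, a log2 fold of -0.70 ± 0.17 (edgeR adjusted p = 0.0453). Without day 5 replicate 1 or day 5 replicate 2 Lgmn did not pass (log2 folds -0.75 and -0.54, edgeR adjusted p 0.0921 and 0.328), and neither did it with DESeq2. Of 10 homeostatic microglia genes 0 passed with edgeR (median 0.03; 0 at an unadjusted p under 0.05 and 0 with DESeq2).

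Some MHC class I genes were higher on day 14. Of 14 tested, 4 were higher and 0 lower, with a median log2 fold of 1.03. B2m, the light chain of every class I molecule, was at 5035 and 5535 CPM on day 5, then 11569 and 12009 on day 14, with no overlap and a log2 fold of 1.27 ± 0.16 (edgeR adjusted p = 0.00177). H2-D1, a class I heavy chain, was at 1553 and 1874 CPM on day 5, then 4259.7 and 3574 on day 14, a log2 fold of 1.30 ± 0.18 (edgeR adjusted p = 0.00282). H2-K1, the other classical heavy chain, was at 800.0 and 538 CPM on day 5, then 1489 and 1446 on day 14, a log2 fold of 1.25 ± 0.21 (edgeR adjusted p = 0.00772). These 3 genes had UMIs in most phagocytes of each library, and without the class II cells they kept log2 folds of 1.21, 1.46 and 1.64, each past the threshold. Without the cells of low Malat1 H2-K1 was at 1.11 (edgeR adjusted p = 0.0635) and the other 2 passed. H2-Q7, a nonclassical gene, had 0 and 1 UMIs on day 5 and then 53 and 48 on day 14, a ratio of 29.5 with a counting interval of 5.17 to 1176, and did not pass with DESeq2 (adjusted p = 0.0737). Counting intervals, here and below, treat every UMI as independent, so they leave out the spread between cells and libraries.

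MHC class II genes were lower on day 14 in the summed cells, and none passed without the 19 class II cells. Those cells were defined by 4 of these same genes, so what follows without them describes where the UMIs lay and is no independent test. Of 8 tested, 5 were lower (H2-Ab1, H2-Eb1, Cd74, H2-Aa and H2-Oa) and 0 higher, with a median of -1.43. H2-Ab1 was at 8658 and 8528 CPM on day 5, then 1839 and 2981 on day 14, a log2 fold of -1.72 ± 0.21 (edgeR adjusted p = 0.00177), and Cd74, the invariant chain, at 19356 and 16912 CPM on day 5, then 4852 and 7409 on day 14, a log2 fold of -1.45 ± 0.21 (edgeR adjusted p = 0.00316). In the other 146 phagocytes Cd74 was at 672 and 642 CPM on day 5 and then 1789.9 and 1286 on day 14, the opposite order. In the 19 cells it was at 48166 and 38105 on day 5 and then 23729.6 and 27782 on day 14. With the 19 left out, 0 of 7 class II genes passed with edgeR (265 of all 1382 genes had an unadjusted p under 0.05), and the log2 folds were 0.46 for H2-Ab1, 1.02 for H2-Eb1, 1.36 for Cd74 and 1.48 for H2-Aa. As given above, the 19 cells contributed a smaller share of all phagocyte UMIs on day 14 than on day 5 in both libraries.

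Several other lower genes lay largely in the same cells. The 19 held 97.4% of the day 5 UMIs of H2-DMb2 (a class II loading factor), 97.6% of those of H2-Oa, 88.9% of those of Il1r2 (a decoy receptor for interleukin 1), 84.6% of those of Siglece (an inhibitory lectin), 80.6% of those of AA467197 and 76.7% of those of Cd300a. None of these 6 passed with DESeq2. Without day 14 replicate 1 AA467197 (-1.55, edgeR adjusted p = 0.0901) and Cd300a (-2.04, edgeR adjusted p = 0.0967) did not pass, nor did Cd300a without day 14 replicate 2 (-2.26, edgeR adjusted p = 0.0925), where AA467197 was at -3.27. Il1r2 had 9 and 9 UMIs on day 5 and then 1 and 5 on day 14, and did not pass without day 5 replicate 1 (edgeR adjusted p = 0.167) or without day 5 replicate 2 (edgeR adjusted p = 0.16). Stmn1, a tubulin-binding protein high in dividing cells, was at 314 and 363 CPM on day 5, then 51.5 and 88.5 on day 14 in all phagocytes, with a log2 fold of -2.12 ± 0.37 (edgeR adjusted p = 0.00818). Without the 19 cells the edgeR log2 fold was -2.40 (adjusted p = 0.0467), while DESeq2 did not call Stmn1 in all cells (adjusted p = 0.0985). Stmn1 was 1 of 5 cell cycle genes tested beyond those of the rule, and the other 4 did not pass. Of the 5, 4 had an unadjusted edgeR p under 0.05 and 0 had a log2 fold above 0, and the list's median was -0.71. The remaining named genes that were lower were few in UMIs. Tspan7, a tetraspanin, had 11 and 7 UMIs on day 5, then 6 and 7 on day 14 (log2 fold -2.10 ± 0.47) and did not pass without day 5 replicate 1 (-1.62, edgeR adjusted p = 0.563), day 14 replicate 1 (-2.19) or day 14 replicate 2 (-1.94). Gtf2h2, a subunit of the transcription factor TFIIH, had 5 and 6 UMIs on day 5, then 4 and 3 on day 14 (log2 fold -2.25 ± 0.51), and DESeq2 called neither of them.

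Some chemokines were higher on day 14. Of 14 cytokines and chemokines tested, 4 were higher (Ccl5, Ccl6, Ccl7 and Ccl9) and 0 lower, with a median of 0.41. Ccl5, a chemokine made by many lymphocytes, had 1 and 9 UMIs on day 5 and then 313 and 312 on day 14, in 1 and 5 cells and in 43 and 35 cells. Its days did not overlap and its log2 fold was 4.32 ± 0.45 (edgeR adjusted p = 0.000771), or 6.56 without day 5 replicate 2. Ccl5 was at 77.2 and 134 CPM on day 5, then 970.3 and 1058 on day 14 in microglia and at 22358 and 14816 on day 5, then 6293 and 4270.1 on day 14 in NK cells, and 44.2% of the phagocytes' day 14 UMIs lay in 5 cells. Without the 33 phagocytes that had any lymphocyte gene UMI the edgeR log2 fold of Ccl5 was 3.90 (adjusted p = 0.0407). The part of lymphocyte RNA in the Ccl5 difference was not tested further.

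Ccl9, a chemokine of myeloid cells, was at 94.1 and 102 CPM on day 5, then 355 and 531 on day 14, a log2 fold of 2.29 ± 0.36 (edgeR adjusted p = 0.00562), and Ccl6, another of them, at 329 and 189 on day 5, then 567 and 777 on day 14, a log2 fold of 1.5 ± 0.30 (edgeR adjusted p = 0.0191). Without the cells of low Malat1 Ccl6 did not pass (edgeR adjusted p = 0.0745), and neither passed without the class II cells (log2 folds 1.67 and 1.08). Ccl7 had 2 and 0 UMIs on day 5 and then 24 and 58 on day 14, with 95.1% of the latter in 5 cells and a ratio of 11.97 (counting interval 3.21 to 101), and was not called by DESeq2. Il1b, the inflammatory cytokine, was at 1961 and 1046 CPM on day 5, then 582 and 1558 on day 14 and overlapped between days (edgeR adjusted p = 0.732).

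Among interferon-induced genes 1 passed. Of 17 tested, 1 was higher, Ifi27l2a, and 0 lower, with a median of 0.49, and 8 had an unadjusted edgeR p under 0.05. Ifi27l2a was at 847 and 697 CPM on day 5, then 2441 and 1900.3 on day 14, a log2 fold of 1.61 ± 0.21 (edgeR adjusted p = 0.00224). Isg15, a ubiquitin-like protein, was at 314 and 552 CPM on day 5, then 407 and 631 on day 14 and overlapped between days. Outside the list, Lgals3bp, a secreted galectin-binding protein, was at 188 and 247 CPM on day 5, then 742 and 627 on day 14, a log2 fold of 1.75 ± 0.27 (edgeR adjusted p = 0.00559). Ly6e, a membrane-anchored interferon-inducible protein, was at 1208 and 1220.4 CPM on day 5, then 2559.9 and 2208 on day 14, a log2 fold of 1.09 ± 0.17 (edgeR adjusted p = 0.00604). Irf8, a transcription factor of microglia and dendritic cells and 1 of 12 macrophage-lineage factors tested, was the 1 that passed, at 235 and 116 CPM on day 5, then 603 and 542 on day 14 and a log2 fold of 1.82 ± 0.32 (edgeR adjusted p = 0.00818). Lag3, an inhibitory receptor that microglia also express, was at 125 and 131 CPM on day 5, then 927 and 496 on day 14, a log2 fold of 2.57 ± 0.41 (edgeR adjusted p = 0.00604). Ly6e did not pass without the cells of low Malat1 (edgeR adjusted p = 0.113). Without the class II cells Lgals3bp and Ly6e passed. Ifi27l2a, Irf8 and Lag3 did not, at log2 folds of 1.38, 1.99 and 2.13 (edgeR adjusted p 0.0792, 0.0689 and 0.0759). Ifi27l2a, Irf8 and Lag3 passed without the cells of low Malat1 (edgeR adjusted p 0.0257, 0.0344 and 0.0309).

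Some genes known from blood monocytes or dendritic cells were higher, mostly from few cells. Ly6c2, a marker of inflammatory monocytes, had 1 and 0 UMIs on day 5 and then 84 and 110 on day 14, with 79.4% of the latter in 5 cells and a ratio of 56.6 (counting interval 10.05 to 2249). Ccr7, a homing receptor of migratory dendritic cells, had 0 UMIs on day 5 and then 26 and 102 on day 14, in 3 and 9 cells. Of these UMIs 93.0% lay in 5 cells, and Ccr7 was at least 12.5-fold higher against a floor of 3 UMIs over the day 5 sum. The intervals and floors of this paragraph treat every UMI as independent and make no allowance for UMIs that lie in few cells. Plac8, a gene of monocytes, was at 314 and 319.6 CPM on day 5, then 849.9 and 1119 on day 14, a log2 fold of 1.75 ± 0.24 (edgeR adjusted p = 0.00282). Of its day 14 UMIs 51.1% lay in the 19 class II cells. Ptafr, the receptor of platelet-activating factor, and Il4i1, a secreted amino acid oxidase, had 0 UMIs on day 5 and on day 14 were at least 3.99-fold higher, although DESeq2 called neither. Without day 5 replicate 1 the fitted log2 folds of Ly6c2 and Ccl7 were 9.25 and 7.98, and without day 5 replicate 2 that of H2-Q7 was 8.32, each against a lone day 5 library with no UMI. Gadd45b, a stress-induced gene, had 2 and 1 UMIs on day 5, then 25 and 47 on day 14, a ratio of 7.01 (counting interval 2.304 to 34.8), and did not pass without day 14 replicate 1 (3.06, edgeR adjusted p = 0.0785) or with DESeq2. Il4i1 was found in 6 and 7 cells on day 14, with 75.6% of its UMIs in 5 of them, and Ptafr in 11 and 15. Fscn1, an actin bundler of mature dendritic cells and of microglia, had 2 and 2 UMIs on day 5 and then 34 and 88 on day 14 (log2 fold 3.18 ± 0.60, edgeR adjusted p = 0.0136), and did not pass without day 14 replicate 2 (2.66, edgeR adjusted p = 0.214). None of Ly6c2, Ccr7, Plac8 and Fscn1 passed without the class II cells (edgeR adjusted p 0.0598, 0.115, 0.207 and 0.115). Their log2 folds there were 4.93, 7.79, 2.12 and 3.05, against 5.78, 8.33, 1.75 and 3.18 in all phagocytes. Each of them passed without the cells of low Malat1 (edgeR adjusted p 0.0136, 0.0381, 0.0136 and 0.0424). Of 9 monocyte genes tested 2 were higher, Plac8 and Ly6c2, while Ccr2 (log2 fold 1.95 ± 0.56, edgeR adjusted p = 0.103) and Lyz2 (0.47 ± 0.16, edgeR adjusted p = 0.195) did not pass. Of 8 dendritic cell genes listed 2 were tested, and only Ccr7 was higher. The other tested gene did not pass, and its log2 fold was not above 0.

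**Figure D4:**
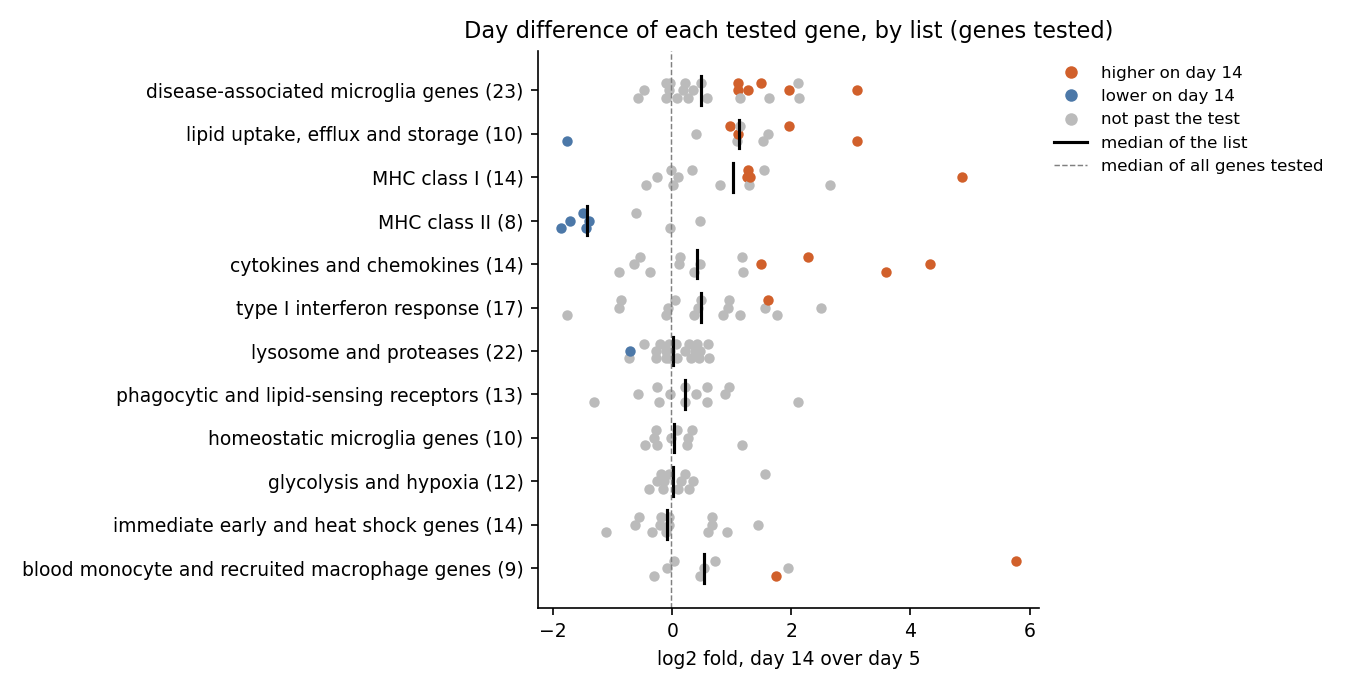
Log2 fold of day 14 over day 5 for each tested gene of 12 lists (number tested in brackets), orange higher, blue lower and grey not past an adjusted p of 0.05. Black bars are list medians, from -1.43 for MHC class II to 1.12 for lipid handling, and the dashed line is the median of all genes tested, -0.02.

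In several lists no gene passed with edgeR, and in these DESeq2 called none but Fth1 of the iron list. They were glycolysis and hypoxia (0 of 12, median 0.01, 1 at an unadjusted p under 0.05), iron handling (0 of 5, 0.14, 2 unadjusted) and complement other than C1q (0 of 6, -0.16, 1 unadjusted). The others were immediate early and heat shock genes (0 of 14, -0.08, 4 unadjusted, but 2 of 13 higher, Fos and Junb, and a median of 1.47 without the class II cells), growth and trophic factors (0 of 6, 0.43, 2 unadjusted) and osteopontin receptors (0 of 2, 0.07, 0 unadjusted). Of the growth factors, Igf1 had a log2 fold of 0.49 ± 0.27 (edgeR adjusted p = 0.436), Csf1 of 2.13 ± 0.61 (edgeR adjusted p = 0.103) and Osm of 2.38 ± 0.60 (edgeR adjusted p = 0.065). Of the osteopontin receptors Itgb5, an integrin chain, was at 267 and 552 CPM on day 5, then 509.9 and 458 on day 14 and overlapped between days. Ferritin light chain, Ftl1, was at 15686 and 13323 CPM on day 5, then 10281 and 10525 on day 14 and heavy chain, Fth1, at 8486 and 8369 on day 5, then 11079 and 11782 on day 14, with edgeR adjusted p of 0.323 and 0.0944.

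**Figure D5:**
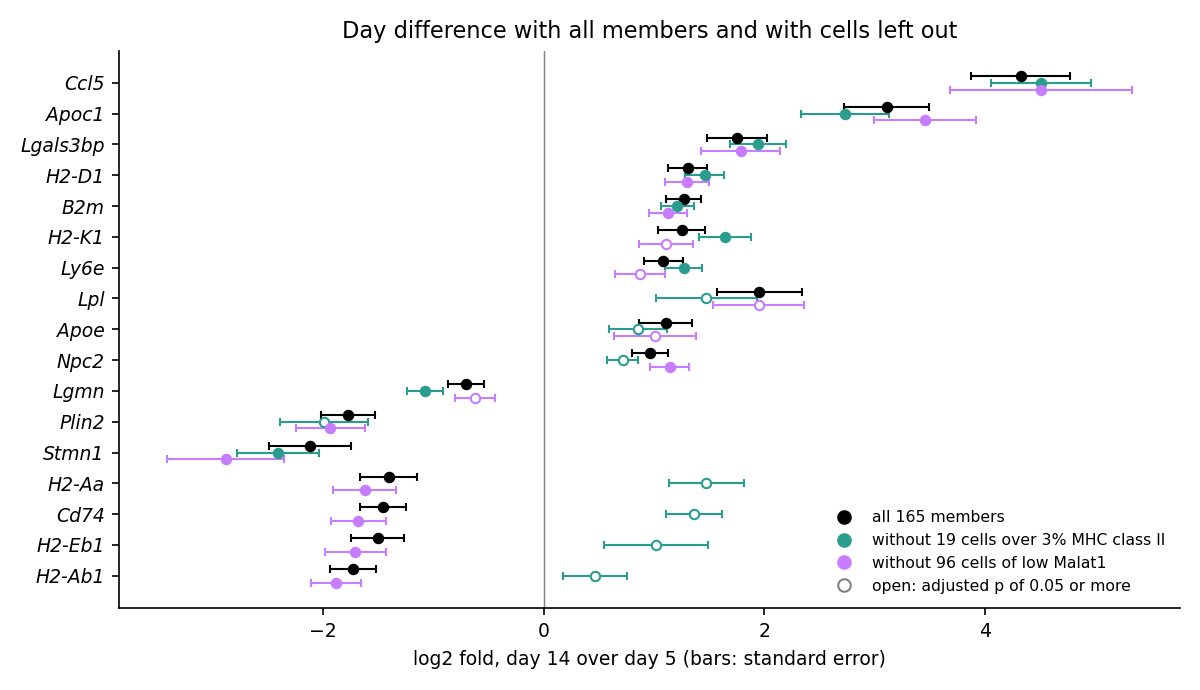
Log2 fold of day 14 over day 5 with its standard error for 17 genes, in all 165 phagocytes (black), without the 19 cells over 3% MHC class II (green) and without the 96 cells of low Malat1 (purple), open where the adjusted p is 0.05 or more. Ccl5, Apoc1, Lgals3bp, H2-D1, B2m and Stmn1 are filled in all 3, and the 4 class II genes are on opposite sides of 0 with and without the 19 cells.

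Whether the day effect of phagocytes differed from that of their neighbours was tested as a cell group by day interaction with the library as a block. Against P2ry12-positive microglia 4 of 4080 genes passed (0.098%; 0.049% each way), and 248 (6.08%) had an unadjusted p under 0.05. Of the 4, Cst7 and Spp1 are genes of the rule, whose differences the limits on these genes can set. The other 2 were Ly6c2 (4.75 ± 0.78, edgeR adjusted p = 0.0324) and Fscn1 (3.84 ± 0.62, edgeR adjusted p = 0.0324). Neither passed with DESeq2, and Ly6c2 did not without day 5 replicate 1 (9.86, edgeR adjusted p = 0.0733), without the class II cells (3.99, edgeR adjusted p = 0.0555) or with no replicate block (4.66, edgeR adjusted p = 0.296). Apoc1 and Apoe did not differ past the test from microglia, where their log2 folds were 2.88 and 1.29 against 3.11 and 1.11 in phagocytes. B2m had a log2 fold of 1.31 in microglia against 1.27 in phagocytes, and the difference did not pass.

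Against Ms4a7-positive macrophages 11 of 3864 genes passed (0.285%), 6 with the higher log2 fold in phagocytes (0.155%) and 5 with the lower (0.129%), and 361 (9.34%) had an unadjusted p under 0.05. Apoe was 1.64 ± 0.12 higher on the log2 scale (edgeR adjusted p = 0.000115): it was higher on day 14 in phagocytes and had a log2 fold of -0.50 in macrophages, where it went from 71489 and 76639.6 CPM on day 5 to 58311 and 46952 on day 14. Apoc1 differed by 3.0 ± 0.37 (edgeR adjusted p = 0.00838), with a macrophage log2 fold of 0.06, and Lpl by 2.58 ± 0.42 (edgeR adjusted p = 0.0332), with one of -0.44. Lpl did not pass without day 14 replicate 2 (2.53, edgeR adjusted p = 0.0813). The Apoe and Apoc1 differences passed under every alternative run: DESeq2, no filter, no block, each library left out and class II cells left out. DESeq2 called only these 2 of the 11, and with no block Lpl, Selenop, Ifitm3, Ccr7 and Malat1 did not pass. Selenop, the selenium carrier, differed by 1.45 ± 0.21 (edgeR adjusted p = 0.0292), with log2 folds of 0.06 in phagocytes and -1.34 in macrophages.

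Of the 5 genes with the lower log2 fold in phagocytes, 4 are interferon-induced. Isg15 differed by -1.88 ± 0.29 (edgeR adjusted p = 0.0313), Ifit1 by -3.39 ± 0.57 (edgeR adjusted p = 0.0406), Ifit3b by -3.76 ± 0.66 (edgeR adjusted p = 0.0444) and Ifitm3 by -1.22 ± 0.21 (edgeR adjusted p = 0.0444). Others of the kind did not pass, such as Ifi27l2a (-0.34, edgeR adjusted p = 0.77) and Ly6e (-0.60, edgeR adjusted p = 0.21). In macrophages the log2 folds of the 4 were 2.32, 1.67, 1.52 and 1.76. In phagocytes Isg15 was at 314 and 552 CPM on day 5 and then 407 and 631 on day 14, while in macrophages it was at 195 and 189 on day 5 and then 841 and 1070.5 on day 14. For Isg15 the 2 macrophage days were thus far apart and the phagocyte days overlapped. In phagocytes Ifit1 was lower on day 14, at 125 and 276 CPM on day 5 and then 41.2 and 65.4 on day 14 (log2 fold -1.77). Both day 14 values of Ifit3b in phagocytes also lay below both day 5 values. Ifitm3 in phagocytes was at 1239 and 1787 CPM on day 5 and then 1803 and 2127 on day 14, a log2 fold of 0.49. Without day 5 replicate 2, in which phagocytes had the highest Ifit1 and Ifit3b of the 4 libraries, none of the 4 passed (log2 differences -1.32, -2.43, -2.44 and -0.72 for Isg15, Ifit1, Ifit3b and Ifitm3). Without the class II cells Ifit3b (-2.99) and Ifitm3 (-0.43) did not pass.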

How the data were processed

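The data are 4 single-cell RNA-seq matrices, 2 libraries a day, of UMI counts as deposited by the authors. The submitters' processing notes name Cell Ranger 3.0.1 and Seurat 2.3.4 with builds GRCm38 and mm10, and the day 14 headers have another layout than those of day 5. No cell annotation was used. The cells were chosen by the stated rule. No doublet caller was run, and cells carrying genes of other cell types were instead left out as alternatives. The cells, genes and lists were chosen with earlier results of these data known.

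UMI counts were summed per library and cell group and tested with edgeR 4.0.16 (TMM, filterByExpr, quasi-likelihood F test, Benjamini-Hochberg threshold 0.05) in R 4.3.3. The scripts were tested on simulated data. DESeq2 1.42.0 was an alternative. Shares were compared with exact permutation tests over libraries (scipy 1.17.1). CPM are not TMM-scaled. Library numbers are not known to mark separate mice. Named genes are those of the rule, the markers Apoc1, Fabp5 and Gpnmb, the 12 largest called changes each way (at least 50 CPM on the higher day, no overlap), the 15 most abundant, the leading level ratios, the largest interaction calls and genes of 25 lists. Ribosomal protein genes and their copies, mitochondrial genes, Gm and Rik models, immune receptor segments, Xist and Y-linked genes are left out of these rankings, as are the rule's genes except among the most abundant. The settings that leave out class II cells, low Malat1 cells, lymphocyte UMIs or shared 3' ends (50% or more of the 60-base windows in the last 400 bases found in another gene), drop the T and B cell limits, or thin to 1500 UMIs were chosen after seeing the data. Same-numbered libraries deviated with a correlation of -0.02 over 1701 genes, so they were not treated as pairs.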

Additional observations from a re-analysis of the deposited data

Results flagged for a closer look

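Of the day effects tested against other cells, 13 outside the rule's genes differed past the threshold in edgeR, with the differences given here on the log2 scale as phagocytes minus the other cells. Against P2ry12-positive microglia these were Ly6c2 at 4.75 and Fscn1 at 3.84. Ly6c2 had 1 UMI in day 5 phagocytes, and Fscn1 had 4.

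Against Ms4a7-positive macrophages the apolipoprotein and lipase genes differed by 3.0 (Apoc1), 1.64 (Apoe) and 2.58 (Lpl), Selenop by 1.45, Malat1 by 0.87 and Ccr7 by 10.08. Ccr7 had no UMI in day 5 phagocytes, so its value depends on the prior count and is no measure of size. Ccr7 did not pass without day 5 replicate 2 (6.93), nor Malat1 without day 14 replicate 2 (0.76). The differences below 0 were Ifitm3 at -1.22, Isg15 at -1.88, AA467197 at -3.18, Ifit1 at -3.39 and Ifit3b at -3.76. In phagocytes AA467197 was at 219.6 and 247 CPM on day 5, then 20.6 and 73.1 on day 14, while in macrophages it was at 100.3 and 78.9, then 172 and 215. It did not pass without the class II cells (-2.86). Malat1, whose low values mark 96 of the 165 phagocytes, was at 5459 and 7947 CPM on day 5, then 10729 and 13448 on day 14. It passed in the day comparison of phagocytes, with a log2 fold of 0.96 ± 0.20 (edgeR adjusted p = 0.0266). Without the class II cells the fold was 1.79 (edgeR adjusted p = 0.04). Without the cells of low Malat1, which were chosen by Malat1 itself, it was 0.93 (edgeR adjusted p = 0.141).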

How the results depend on the processing

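In the day comparison, 64 genes passed in edgeR. The count was 41 with DESeq2, 141 with no filter, 39 with mixed cells left out, 17 thinned to 3000 UMIs, 124 with looser and 0 of 829 with stricter Cst7 and Spp1 limits (98 at an unadjusted p under 0.05). It was 22 without cells holding any lymphocyte UMI, 17 without class II cells, 40 without low Malat1 cells and 80 to 100 without 1 library. Higher calls were 73.4% of the total, 87.8% with DESeq2 and 65.7% with no TMM, which moved the median of all genes from -0.02 to -0.14. The replicate block gave 102 calls, with all 64 among them. Against microglia 4 genes passed, and 2 with DESeq2, 35 with no filter, 2 with no replicate block, 27 without class II cells and 12 to 32 without 1 library. Against macrophages 11 passed, and 2, 119, 7, 69 and 26 to 59 under the same settings. Directions turned for Plac8 (-0.28, stricter limits), for H2-Aa (0.36) and Cd74 (0.25) with mixed cells left out, and without class II cells for H2-Ab1 (0.46), H2-Aa (1.48), H2-Eb1 (1.02) and Cd74 (1.36). The cause of these changes, fewer cells or genes among them, was not tested. Every share difference kept its direction under the settings run. The main limits are 39 day 5 cells, low depth per cell and 2 libraries a day, which a left-out library reduces to 1 that is assumed to vary like the others.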

Other observations

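With the 19 class II cells left out, 3 genes passed in the day comparison that had not passed in all 165 phagocytes. Fos, an immediate early transcription factor, had an edgeR log2 fold of 2.43 for day 14 over day 5, Junb, another, one of 1.21, and Ifitm3, an interferon-induced membrane protein, one of 1.20. Of the 13 immediate early and heat shock genes tested in those 146 cells 2 were higher and 0 lower, with a median of 1.47 against -0.02 over all genes. Of 16 interferon-induced genes 1 was higher, with a median of 0.98.

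Genes outside the rule were also given for cells of low Malat1 and the other phagocytes, as a description with no test. The median Apoc1 was 4.88 UMIs per 10000 in the 96 cells of low Malat1 and 1.00 in the other 69. Fabp5 was at 7.67 against 3.70 and B2m at 134 against 84.6. Cd74 was the other way round, at 5.75 against 11.3.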
